A study of Homo sapiens with 6 samples.

Results

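Integrin adaptors are the proteins that sit on the cytoplasmic side of a focal adhesion, the site where integrins join the extracellular matrix to the actin cytoskeleton. The 10 genes described here encode tensins (TNS1, TNS2, TNS3), talins (TLN1, TLN2), vinculin (VCL), paxillin (PXN), zyxin (ZYX), kindlin-2 (FERMT2) and integrin-linked kinase (ILK). They were chosen by symbol, as proteins that bind integrin tails or link them to actin, with earlier results of these data known. They are 10 of the 58735 genes in the deposited count table. All 10 passed the filter on low counts.

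The cells sequenced were ARPE-19, an established human line of retinal pigment epithelial (RPE) cells. The 3 control libraries, called NC, carry the genotype WT in the labels, and the 3 libraries called OE CD51 ICD come from cells that overexpress CD51-ICD. CD51 is the integrin alpha V subunit encoded by ITGAV, and the labels give no vector, clone or time for either group. The series title concerns signalling from SPP1 to ITGAV between microglia and RPE, and the comparison asks what changes in RPE cells that overexpress the CD51-derived fragment. No label says whether the 3 libraries of a group are separate cultures. The p-values therefore cover the spread among these libraries alone, which may be technical.

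Talin and kindlin bind the tails of integrin beta subunits and switch integrins to their active state, and talin also binds actin. Vinculin joins talin to actin when the link is under force, and paxillin and zyxin are LIM-domain scaffolds that gather signalling proteins and actin regulators there. Tensins bind beta tails and actin too and are known from fibrillar adhesions, the elongated sites where fibronectin is assembled. ILK is a pseudokinase that, with PINCH and parvin, forms a complex at beta tails.

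Total counts ran from 13616694 to 16934668 per library. ITGAV rose from 98.4 ± 12.9 to 448 ± 83.5 CPM (SD, n = 3), the count relative to a library size scaled for composition. That count covers the whole gene, so the construct and the cell's own transcript cannot be told apart. Of the RPE markers, RPE65 had no count in any library. Total counts over NC and the overexpressing group were 0 and 1 for DCT and 2 and 9 for TYR. They were 17 and 13 for TYRP1 and 34 and 25 for BEST1. Of 7 RPE and epithelial markers tested, 3 were higher (PAX6 at a mean of 38.8 and 58.5 CPM in NC and the overexpressing group, PMEL at 8.93 and 15.6, RLBP1 at 1.91 and 3.32). MITF was lower, at 26.6 and 18.0 CPM. OTX2, at 27.8 and 28.9 CPM, and KRT18, at 1538 and 1444 CPM, did not pass the test. KRT8, at 3718 and 3461 CPM, did not pass the test and its groups overlapped. Summed markers of microglia and macrophages were at most 0.358 CPM in any library, with C1QA at 0. Endothelial markers summed to 2.14 to 2.83 CPM in NC against 0.572 to 1.57 CPM in OE CD51 ICD, with KDR lower. Fibroblast markers summed to 213 to 238 CPM in NC against 375 to 415 CPM in OE CD51 ICD. PDGFRB alone averaged 223 and 389 CPM, DCN was at 0, and COL1A2 had 0 and 12 counts in the groups. Markers of pericytes and smooth muscle summed to 109 to 133 CPM in NC against 62.4 to 64.9 CPM in OE CD51 ICD, and MCAM and DES were lower. MCAM alone averaged 71.2 and 20.9 CPM, whereas ACTA2 averaged 33.3 and 32.8 CPM. The part of these marker differences in the results was not tested, and in bulk RNA fewer cells of a type and less RNA per cell cannot be told apart.

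Of the 10 adaptor genes, 8 were higher in OE CD51 ICD, 1 was lower and 1 did not pass the test. Calls required an adjusted p below 0.05 in edgeR's quasi-likelihood test, with Benjamini-Hochberg adjustment over all 13787 genes tested. By that rule 51.0% of all genes tested were called, 25.2% higher and 25.8% lower. The median log2 fold change of the 10 genes was 0.41, beside 0.01 over all genes tested. By at least 2-fold, TNS1, FERMT2 and VCL were higher, where 6.89% of all genes were, and none of the 10 was lower, where 5.83% were. The CPM values of the groups did not overlap for 9 of the 10 genes, beside 57.5% of all genes tested, and 8 of these were higher, beside 28.0%. Because the 10 genes were chosen with earlier results of these data known, their difference from the shares over all genes was not tested.

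**Figure D1:**
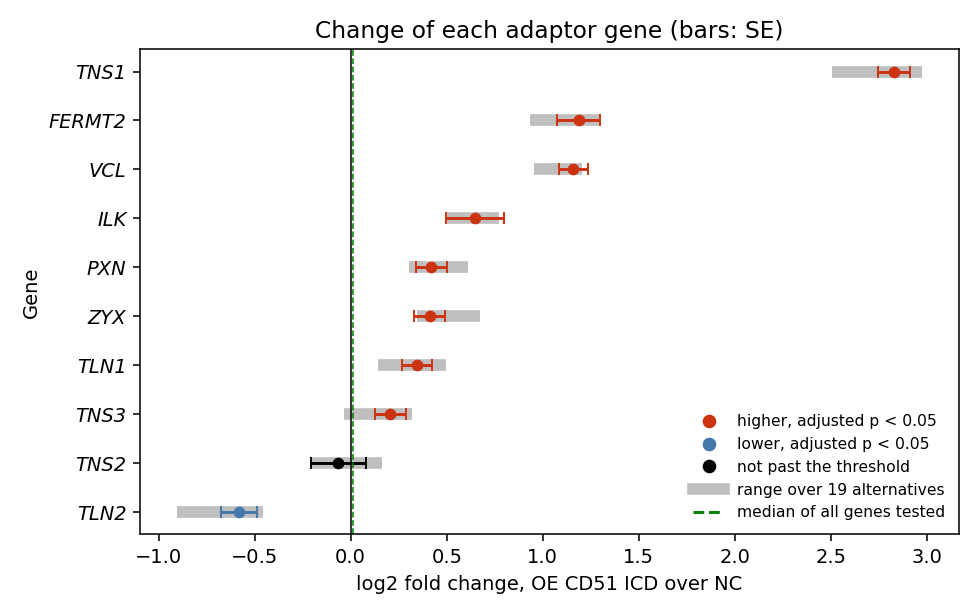
The log2 fold change of each of the 10 adaptor genes in OE CD51 ICD over NC (points, with SE as bars), from edgeR on 3 libraries against 3, with the range over 19 processing alternatives as grey bands. TNS1 stands at 2.83, FERMT2 and VCL stand just above 1, TLN2 is below 0, and the bands of TNS2 and TNS3 cross 0.

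The 3 tensins differed among themselves. TNS1, tensin 1 (ENSG00000079308, GRCh38 chromosome 2, 217799588 to 218033982, minus strand), was at 138, 129.98 and 134 CPM in the NC libraries and at 966, 922 and 965 CPM in the OE CD51 ICD libraries. Every OE CD51 ICD library was far above every NC library. The rise was 7.10-fold (log2 2.83 ± 0.08 SE, adjusted p = 3.11e-22, n = 3 per group), and 0.892% of the genes tested had a larger one.

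TNS3, tensin 3 (ENSG00000136205, chromosome 7), was the most abundant tensin per length in NC. It was at 411, 429 and 487 CPM in NC, against 528, 512 and 489.8 CPM in OE CD51 ICD, so the highest NC and the lowest OE CD51 ICD library lay side by side. Its log2 fold change was 0.21 ± 0.08 SE (adjusted p = 0.0321). The call rested on single libraries and settings: the adjusted p was 0.206 when NC replicate 1 was left out, 0.137 for NC replicate 2, and 0.149 for the first OE CD51 ICD library. With each library's trend with gene length removed, its log2 fold change was -0.035 (adjusted p = 0.763).

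TNS2, tensin 2 (ENSG00000111077, chromosome 12), was at 17.8, 17.8 and 26.6 CPM in NC, against 18.8, 20.9 and 19.6 CPM in OE CD51 ICD. NC replicate 3 was above all other libraries, and the groups overlapped. Its log2 fold change was -0.07 ± 0.14 SE (adjusted p = 0.728), and 2 SE on either side reach from -0.35 to 0.22. Without NC replicate 3 it was 0.15 (adjusted p = 0.400). TNS4, the tensin that lacks the actin-binding region of the others, had no count in any library.

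Because CPM depends on gene length, levels of different genes were compared as deposited FPKM, which scales counts by gene length and library size. The tensins summed to 47.9 ± 4.09 FPKM in NC and 102.9 ± 2.77 FPKM in OE CD51 ICD (SD, n = 3). TNS1 made up 17.1 ± 1.54% of that sum in NC and 56.1 ± 1.17% in OE CD51 ICD. TNS3 went from 77.6 ± 0.939% to 41.5 ± 1.14%, so TNS3 was the leading tensin in all NC libraries and TNS1 in all OE CD51 ICD libraries.

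The TNS3 to TNS1 ratio was 4.11, 4.55 and 5.03 in the NC libraries and 0.754, 0.766 and 0.700 in the OE CD51 ICD libraries. The ratio was 6.14-fold lower in OE CD51 ICD, with no overlap (two-sided exact permutation test, p = 0.1, the smallest that 3 libraries against 3 allow). The TNS2 to TNS1 ratio was 7.31-fold lower (exact p = 0.1). With the TLN2 to TLN1 ratio below, 3 such ratios were tested, and the adjusted p of each is also 0.1.

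**Figure D2:**
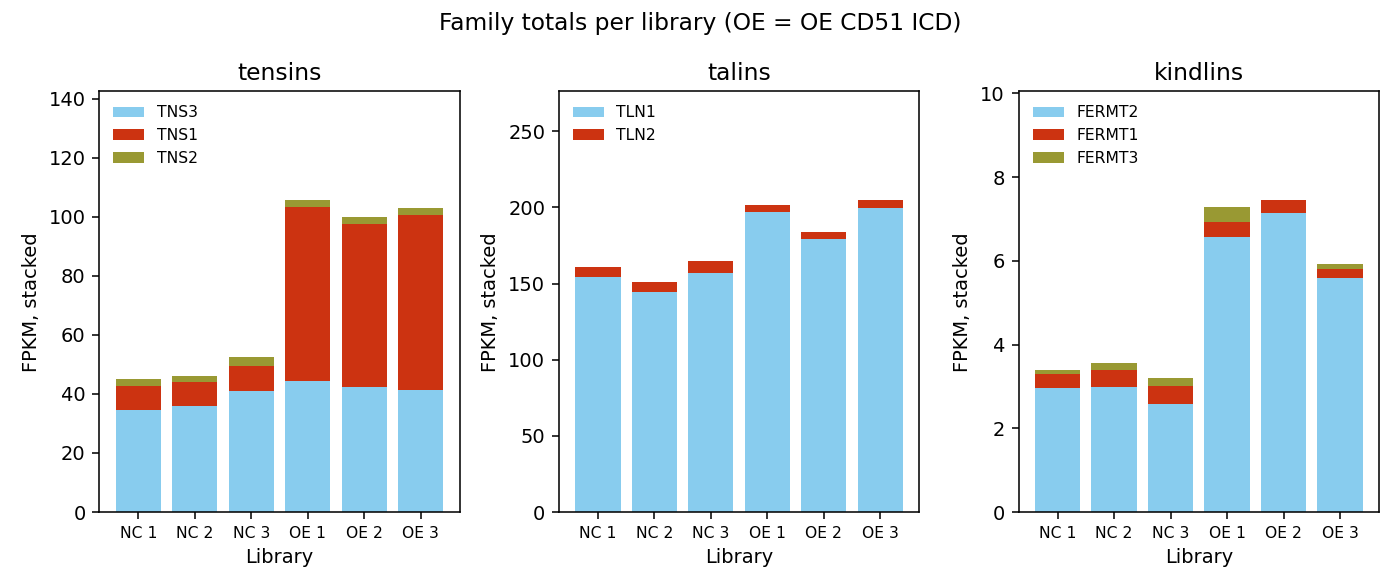
Deposited FPKM of the tensin, talin and kindlin genes, stacked in each of the 6 libraries (OE stands for OE CD51 ICD). The tensin total goes from 45.0 to 52.6 FPKM in NC to between 99.99 and 106 FPKM, mostly through TNS1, while TLN1 and FERMT2 lead their families in every library.

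The talins moved apart. TLN1, talin 1 (ENSG00000137076, chromosome 9), the widely expressed form, was at 1573, 1466 and 1587 CPM in NC, against 2004, 1856 and 2018 CPM in OE CD51 ICD. All OE CD51 ICD libraries were above all NC libraries, by a log2 fold change of 0.35 ± 0.08 SE (adjusted p = 3.98e-04). The call was lost with the gene length trend removed (log2 0.14, adjusted p = 0.181).

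TLN2, talin 2 (ENSG00000171914, chromosome 15), the paralog known from heart, muscle and brain, was at 99.8, 104 and 131 CPM in NC. In OE CD51 ICD it was at 76.0, 72.6 and 75.3 CPM, below every NC library. It was the only adaptor gene of the 10 that was called lower, with a log2 fold change of -0.58 ± 0.09 SE (adjusted p = 6.58e-06), or -0.90 with the gene length trend removed. Of the summed talin FPKM, TLN2 held 4.31 ± 0.551% in NC and 2.32 ± 0.0551% in OE CD51 ICD. The TLN2 to TLN1 ratio was 0.0394, 0.0442 and 0.0514 in NC and 0.0236, 0.0243 and 0.0232 in OE CD51 ICD, which is 1.89-fold lower (exact permutation p = 0.1).

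FERMT2, kindlin-2 (ENSG00000073712, chromosome 14), was at 25.5, 25.6 and 21.97 CPM in NC, against 56.3, 62.4 and 47.7 CPM in OE CD51 ICD. The lowest OE CD51 ICD library was still well above the highest NC library. FERMT2 rose 2.28-fold (log2 1.19 ± 0.11 SE, adjusted p = 2.94e-10). It was the main kindlin in every library, with 83.9 ± 3.30% of kindlin FPKM in NC and 93.5 ± 3.10% in OE CD51 ICD. The epithelial kindlin FERMT1 had a total of 97 counts in NC, 70 in OE CD51 ICD, and did not pass the test (log2 -0.41), and the blood cell form FERMT3 had 21 and 22 and was not tested.

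ILK (ENSG00000166333, chromosome 11, 6603708 to 6610874, plus strand) was at 8.79, 11.3 and 10.9 CPM in NC, against 14.6, 17.9 and 15.8 CPM in OE CD51 ICD, with no overlap. Its log2 fold change was 0.65 ± 0.15 SE (adjusted p = 6.78e-04). In the GENCODE 29 annotation, 78.5% of its 3484 exon bases are shared with other genes, 2374 of them with TAF10 on the other strand. The use of strand and the handling of shared bases are not stated in the labels, so its level per length and its change are uncertain. TAF10, a subunit of general transcription factor TFIID, named after its values were seen, was at 14.7 ± 0.173 CPM in NC, against 18.4 ± 2.26 CPM in OE CD51 ICD. Its adjusted p was 0.0492 and ran from 0.0259 to 0.189 over 19 alternatives, of which 7 kept the call. Chromosome 11 as a whole also had more calls in the higher direction, with 40.4% of its 792 tested genes higher, 17.3% lower and a median log2 fold change of 0.21. The part of that shift in the ILK value was not tested.

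VCL, vinculin (ENSG00000035403, chromosome 10, 73995193 to 74121363, plus strand), was at 388, 383 and 418 CPM in NC, against 898, 903 and 853 CPM in OE CD51 ICD. The groups were far apart and the libraries within each close together. The rise was 2.23-fold (log2 1.16 ± 0.08 SE, adjusted p = 1.77e-13). Of its exon bases, 11.1% are shared with AP3M1 on the other strand.

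PXN and ZYX rose less. PXN, paxillin (ENSG00000089159, chromosome 12), was at 287, 299 and 333 CPM in NC, against 402, 387 and 439.9 CPM in OE CD51 ICD. ZYX, zyxin (ENSG00000159840, chromosome 7), was at 785, 715 and 732 CPM in NC, against 969, 935 and 1062 CPM in OE CD51 ICD. Neither gene's groups overlapped. The log2 fold changes were 0.42 ± 0.08 SE for PXN (adjusted p = 7.64e-05) and 0.41 ± 0.08 SE for ZYX (adjusted p = 6.47e-05), and removing each library's trend with GC content put ZYX at 0.67. Antisense transcripts, chiefly PXN-AS1, share 12.4% of the exon bases of PXN. For the other 7 genes the shared part ran from 0 to 5.22%.

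Per length, ZYX and TLN1 led in both groups. In NC, ZYX had 212 ± 9.89 FPKM and TLN1 152 ± 6.71 FPKM. PXN (40.8 ± 3.36 FPKM), VCL (39.4 ± 2.03) and TNS3 (37.2 ± 3.49) followed with overlapping libraries. TNS1 (8.16 ± 0.238) and TLN2 (6.85 ± 1.07) overlapped next, and ILK (2.94 ± 0.384), FERMT2 (2.84 ± 0.231) and TNS2 (2.54 ± 0.638) were lowest and overlapped too. In OE CD51 ICD the order was ZYX (281 ± 21.9), TLN1 (192 ± 11.1), VCL (87.4 ± 2.01), TNS1 (57.7 ± 2.22), PXN (54.3 ± 4.24), TNS3 (42.7 ± 1.51), FERMT2 (6.43 ± 0.780), ILK (4.56 ± 0.425), TLN2 (4.55 ± 0.160) and TNS2 (2.41 ± 0.105). There the libraries of TNS1 overlapped with those of PXN, and those of ILK with those of TLN2. VCL thus stood apart from PXN and TNS3 only in OE CD51 ICD, a comparison of ranges that was not tested.

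**Figure D3:**
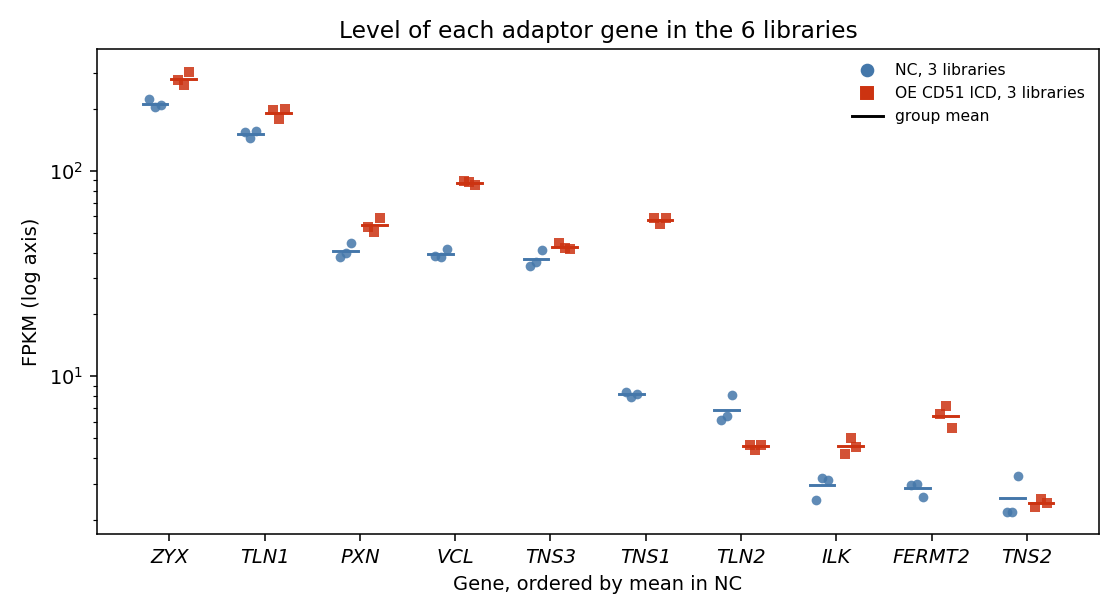
Deposited FPKM of the 10 adaptor genes on a log axis, with 1 point per library, 3 for NC and 3 for OE CD51 ICD, and a line at each group mean. The TNS1 points go from between 7.92 and 8.39 to between 55.2 and 59.2 FPKM, whereas the TNS2 points of the groups overlap.

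RefSeq promoter windows (GRCh38.p14, 250 bases before to 50 after a transcript start) were matched by symbol for all 10 genes, 19 windows in all, of which TNS1 has 5. Each was searched on both strands for the hexamer GGAATG bound by TEAD factors, the CArG box of SRF, the palindrome GTCTAGAC bound by SMADs and the AP-1 site TGACTCA. The hexamer GGAATG was found in 4 of the 19 windows, beside 14.0% of all 35116 windows. These belong to VCL, PXN and, for 2 of its 5 windows, TNS1. A link between the hexamer and the change of these genes was not tested. The other motifs were in none of the 19, and in 1.29%, 0.202% and 4.95% of all windows. A match describes the letters only. Gene counts do not show which start was used. The upstream 250 bases of the 4 windows are shown 5′ to 3′ on the strand of the gene, as the only ones of the 19 with a match. Capitals mark GGAATG or its reverse complement.
VCL, chr10:73997866-73998115, plus strand: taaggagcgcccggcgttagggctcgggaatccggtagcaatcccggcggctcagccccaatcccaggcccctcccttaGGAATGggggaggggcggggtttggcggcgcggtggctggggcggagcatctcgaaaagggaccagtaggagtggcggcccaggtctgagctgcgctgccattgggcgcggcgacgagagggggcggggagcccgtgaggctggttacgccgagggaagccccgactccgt
PXN, chr12:120250164-120250413, minus strand: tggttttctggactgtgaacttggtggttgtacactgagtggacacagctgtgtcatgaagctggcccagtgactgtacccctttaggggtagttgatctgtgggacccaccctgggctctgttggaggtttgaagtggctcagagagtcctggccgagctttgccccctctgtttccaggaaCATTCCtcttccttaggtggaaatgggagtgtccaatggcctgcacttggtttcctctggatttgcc
TNS1, chr2:217944071-217944320, minus strand: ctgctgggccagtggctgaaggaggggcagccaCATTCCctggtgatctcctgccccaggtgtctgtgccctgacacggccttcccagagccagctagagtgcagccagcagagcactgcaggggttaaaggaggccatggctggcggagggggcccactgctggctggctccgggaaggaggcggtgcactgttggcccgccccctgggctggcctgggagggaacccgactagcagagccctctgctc
TNS1, chr2:217920237-217920486, minus strand: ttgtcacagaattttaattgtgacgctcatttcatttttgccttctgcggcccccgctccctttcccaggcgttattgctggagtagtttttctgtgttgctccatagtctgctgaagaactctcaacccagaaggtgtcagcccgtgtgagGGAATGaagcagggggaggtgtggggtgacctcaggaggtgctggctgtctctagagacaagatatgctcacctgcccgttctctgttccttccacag

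Other adhesion genes were counted in lists grouped by role. For comparison, 25.2% of all genes tested were called higher and 25.8% lower. The share called lower was below 25.8% in some lists and above it in others. The difference of a list from these shares was not tested, and the lists were chosen with earlier results of these data known. Of 13 tested integrin tail binders, 5 were higher and 3 lower, with a median log2 fold change of 0.04. MYO10, an unconventional myosin that carries integrins to filopodia, rose from 83.5 ± 10.8 to 253 ± 13.4 CPM. FLNC, a filamin that crosslinks actin and binds beta tails, fell by 1.01 on the log2 scale, from 3958 ± 252 to 1968 ± 83.6 CPM. NUMB, an endocytic adaptor, was at 0.35, a call lost without NC replicate 1 (adjusted p = 0.0507) and with the trend with GC content or length removed (adjusted p = 0.126 and 0.220). DOK1, which competes with talin for beta tails, was at -0.44, a call lost with the GC trend removed (adjusted p = 0.0602). The higher count of this list was 3 without NC replicate 1 and with the length trend removed.

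Of 6 tested partners of ILK, 4 were higher and 2 lower, with a median of 0.73. LIMS1, which encodes PINCH1, rose from 20.9 ± 2.61 to 51.3 ± 4.14 CPM. PARVA, alpha-parvin, also on chromosome 11, rose from 140.4 ± 1.13 to 234 ± 12.7 CPM, and RSU1, which binds PINCH1, rose by 0.71 on the log2 scale. PARVB, beta-parvin, and the phosphatase gene ILKAP fell by 0.46 each (log2 -0.46 ± 0.10 SE for PARVB).

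Genes for talin recruitment and turnover included 12 that were tested, with 4 higher, 2 lower and a median of 0.10. KANK1, a talin-binding protein at the rim of adhesions, rose from 65.3 ± 3.09 to 162 ± 16.8 CPM. CAPN2, the large subunit of a calpain that cleaves talin, rose by 0.79 and its inhibitor CAST by 0.63 on the log2 scale, while the small calpain subunit CAPNS1 fell by 0.37. TLNRD1, which encodes a protein with a talin-like rod domain, fell by 0.51.

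Actin crosslinkers and LIM proteins included 31 that were tested, with 14 higher, 9 lower and a median of 0.19. Of the rises, SORBS2, named after its values were seen, averaged only 0.211 CPM in NC. It passed the low-count filter only through OE CD51 ICD (2.16 CPM), so it could be called only higher. The count of 14 and the median include it. The paxillin relative TGFB1I1, Hic-5, rose from 56.8 ± 5.53 to 130.4 ± 3.12 CPM. PDLIM7 rose from 312 ± 29.5 to 695 ± 45.7 CPM and TES, a zyxin-binding LIM protein, from 76.7 ± 4.76 to 161 ± 19.4 CPM. TRIP6, of the zyxin family, fell from 437 ± 19.8 to 246 ± 31.0 CPM, and NEBL, of the nebulin family, fell by 1.32 on the log2 scale. Of the other zyxin relatives, named after their values were seen, LPP rose by 0.49 with overlapping groups, AJUBA fell by 0.28 and WTIP by 0.67 on the log2 scale, and LIMD1 was at -0.04 and did not pass. The LPP call was lost with the gene length trend removed (adjusted p = 0.822), where LIMD1 was lower (log2 -0.30, adjusted p = 0.00764), and the AJUBA call was lost when NC replicate 2 was left out (adjusted p = 0.0542). Differences between zyxin relatives were not tested.

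Among 33 adhesion kinases, scaffolds and RhoGAPs, 17 were higher and 5 lower, with a median of 0.19. NEDD9, a scaffold for focal adhesion kinase and Src, rose from 37.0 ± 5.90 to 192 ± 12.3 CPM. ASAP2, an Arf GAP, rose from 28.2 ± 2.31 to 73.8 ± 6.43 CPM and STARD13, a RhoGAP, from 27.4 ± 1.70 to 64.2 ± 1.30 CPM. GIT1, a paxillin-binding Arf GAP, fell from 263 ± 6.40 to 136 ± 13.4 CPM, and RAPGEF1, an exchange factor for Rap1, fell by 0.69 on the log2 scale. With the gene length trend removed, 9 members of this list were lower.

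Actomyosin genes and SRF cofactors included 31 that were tested, with 20 higher, 4 lower and a median of 0.35. TAGLN, transgelin, also on chromosome 11, rose from 199 ± 58.7 to 715 ± 54.9 CPM, RHOB, a small GTPase, from 89.6 ± 7.06 to 318 ± 12.4 CPM and the actin-binding CALD1 by 1.78 on the log2 scale. The formin gene DIAPH3 fell by 0.89 and RHOC by 0.59.

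Of 15 tested integrin subunits other than ITGAV, alpha and beta together, 10 were higher and 3 lower, with a median of 1.04. Of the rises, ITGA11, ITGA2 and ITGB6, named after their values were seen, averaged only 0.164, 0.284 and 0.0193 CPM in NC. They passed the low-count filter only through OE CD51 ICD (4.30, 3.06 and 0.730 CPM), so they could be called only higher. The count of 10 and the median include them. ITGB1, the beta-1 partner of most alpha subunits, was at 435, 416 and 336 CPM in NC, against 1133, 1274 and 1001 CPM in OE CD51 ICD, with no overlap. ITGB3 and ITGA1 rose by 1.88 and 1.65, and ITGB8 and ITGA7 fell by 1.62 and 0.86 on the log2 scale. The lower count was 2 with any 1 library left out: ITGB4, the third of the lower calls (log2 -0.19, adjusted p = 0.0419), named after its values were seen, was then not called, and with the GC trend removed it was at 0.057 (adjusted p = 0.503).

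**Figure D4:**
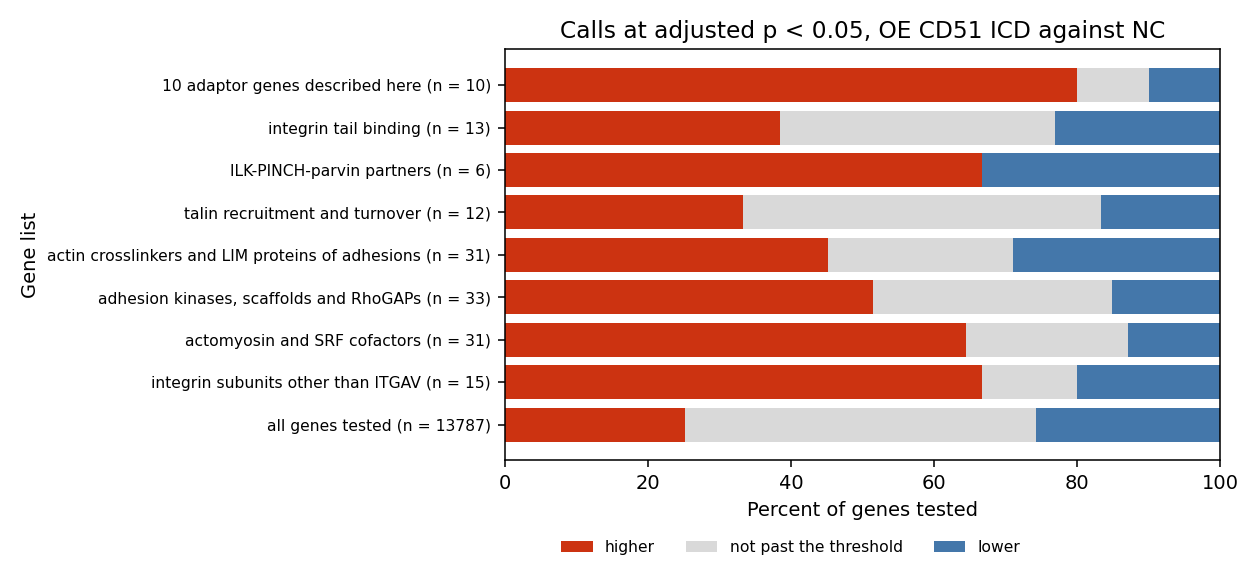
Share of tested genes called higher, lower or neither in the 10 adaptor genes, in 7 lists of other adhesion genes and over all genes tested. The higher share is 80.0% for the 10 genes, 33.3% to 66.7% in the lists and 25.2% over all genes. The lower share is 12.9% to 33.3% in the lists and 25.8% over all genes. The higher share of integrin subunits includes ITGA11, ITGA2 and ITGB6, and that of actin crosslinkers and LIM proteins includes SORBS2. These genes passed the low-count filter only through OE CD51 ICD.

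**Figure D5:**
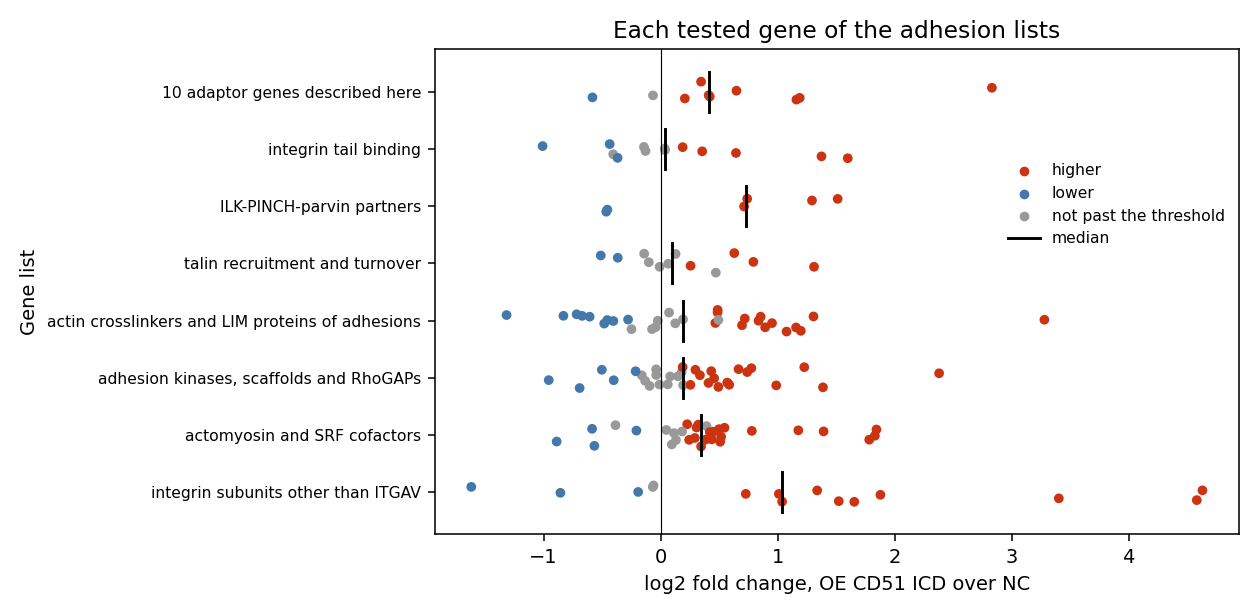
The log2 fold change of each tested gene in the same lists, with 1 point per gene and a bar at each list's median. The medians run from 0.04 for integrin tail binders to 1.04 for integrin subunits, and every list has genes on both sides of 0. The integrin subunit median includes ITGA11, ITGA2 and ITGB6, and that of actin crosslinkers and LIM proteins includes SORBS2. These genes passed the low-count filter only through OE CD51 ICD.

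For TNS1, the likeness of other genes was measured as Pearson's r of log2 CPM over the 6 libraries, among 9573 protein-coding genes that averaged 5 CPM or more. The 5 most like it were XBP1, COL20A1, TGM2, PDGFB and COL7A1, each with an r above 0.99, as 227 genes had. COL20A1 was at 0 in all NC libraries, averaging 11.3 CPM in OE CD51 ICD, so it reached that mean only through the group where it is present, and its r depends on the prior count. All these values are descriptions over libraries that share the difference between the groups. XBP1, a transcription factor of the unfolded protein response, rose by 1.10 and TGM2, a transglutaminase, by 3.18 on the log2 scale. Among the 10 adaptor genes, the r with TNS1 over the same libraries was highest for VCL, FERMT2 and TLN1 (0.996, 0.973 and 0.962). It was -0.11 for TNS2 and -0.92 for TLN2.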

How the data were processed

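Messenger RNA was sequenced in 6 ARPE-19 libraries, per the labels' protocols with a SMARTER kit on total RNA from TRNzol or a Quick-RNA column kit. The authors deposited whole-number gene counts and FPKM values, on hg38 per the submitters' processing notes, with the aligner, counting program and strand setting not given in the sources used here. The deposited FPKM values equal the counts divided by gene length and 1 constant per library, and all 58735 gene IDs and coordinates matched GENCODE 29. The test was that of edgeR 4.0.16 under R 4.3.3 (filterByExpr, TMM, glmQLFTest), on 13787 genes, and CPM uses the TMM-scaled library sizes. SE comes from the F statistic. In simulated counts on 13787 genes with 200 changed, 82% of log2 changes of 1 were recovered and 99% of those of 2. Of the calls in those counts, 3.21% were false. In the data 51.0% of genes were called, far more than were changed in the simulation, so these rates may not carry over. All replicate pairs differed by more than sampling noise.

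The 10 genes and the lists were chosen with earlier results of these data known. Named were the 10 genes, up to 3 called rises and 2 called falls per list at a mean of at least 5 CPM, the 5 genes most like TNS1, and ITGAV. A gene that this rule names in the list of integrin tail binders is not reported here. Alternatives used DESeq2 1.42.0, limma 3.58.1 on voom values, log2(FPKM + 1) and log2(FPKM + 0.1), other scalings and filters, protein-coding genes, the replicate number as a block, each library left out, and loess removal of GC (available for 99.96% of tested genes) or gene length trends. Summaries were made in Python 3.11.15 with NumPy 2.4.6, pandas 2.3.3 and SciPy 1.17.1, and plots with matplotlib 3.10.9.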

Additional observations from a re-analysis of the deposited data

How the results depend on the processing

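Over 19 alternatives, TNS1 (log2 2.51 to 2.97), VCL (0.96 to 1.20), FERMT2 (0.93 to 1.29), ILK (0.50 to 0.77), PXN (0.30 to 0.61), ZYX (0.35 to 0.67) and TLN2 (-0.90 to -0.46) kept their direction and their call. TNS3, called at log2 0.21, was not called with library size only (0.14), without a low-count filter (0.20), or in limma on log2(FPKM + 1) (0.20) or log2(FPKM + 0.1) (0.20), and lay between 0.15 and 0.28 with 1 library left out. It was -0.035 with the gene length trend removed, where TLN1 was 0.14 and not called. TNS2, not called in any alternative, was 0.16 with the GC trend removed and from -0.17 to 0.15 with 1 library left out, 0.15 without NC replicate 3. The higher count of the 10 genes ran from 6 (gene length trend removed) to 8, and the lower count was 1 in all 19. Among the lists, the higher count of the tail binders was 3 with the length trend removed and 3 to 5 with 1 library left out, and the lower count of kinases and scaffolds was 9 with the length trend removed. ITGB4 was 0.057 with the GC trend removed. LIMD1 was 0.0031 with upper-quartile scaling and from -0.11 to 0.062 with 1 library left out. The cause of these changes was not tested. The 3 paralog ratios, recomputed only with each library left out and as counts per base, were lower in each case, and the latter gives the same values by construction. With the replicate number as a block, 8 of the 10 genes were higher and 1 lower, and 3437 and 3552 of all genes, beside 3469 and 3559 without it. Deviations of same-numbered libraries had correlations of -0.05, 0.00 and 0.05, and not every library correlated best with its own number, so the numbers were not taken as pairs.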

Other observations

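Some adhesion genes below the mean of 5 CPM, chosen after their values were seen, also rose. ITGA11, a collagen-binding integrin subunit, was at 0.289, 0 and 0.203 CPM in NC, against 4.74, 4.31 and 3.86 CPM in OE CD51 ICD (edgeR, log2 4.58 ± 0.44 SE, adjusted p = 3.92e-10). ITGA2, which also binds collagen with ITGB1, was at 0.284 ± 0.0533 CPM in NC, against 3.06 ± 1.12 CPM in OE CD51 ICD (SD, n = 3). SORBS2, a vinculin-binding adaptor, rose from 0.211 ± 0.0742 to 2.16 ± 0.387 CPM. The paxillin relative LPXN rose from 2.76 ± 0.255 to 6.82 ± 0.838 CPM, and LIMS2, which encodes PINCH2, from 2.04 ± 0.714 to 5.87 ± 1.56 CPM. The groups did not overlap for any of these 5 genes, beside 57.5% of all genes tested, but the genes were chosen with these values known. ITGA11, ITGA2 and SORBS2 passed the low-count filter only through OE CD51 ICD, so they could be called only higher. The adjusted p of ITGA11 therefore adds no support. DLC1, a RhoGAP known to bind tensins, above that level and also chosen after its values were seen, rose from 57.9 ± 7.34 to 115 ± 11.4 CPM.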
